A study of Mus musculus with 4 samples.

Results

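Platelet mRNA in mouse mitral valve was followed through 10 genes: the granule chemokines Ppbp and Pf4, the surface receptors Clec1b, Gp9, Gp1bb and Itga2b, the intracellular proteins Plek and Fermt3, the transglutaminase F13a1 and the adhesion receptor Selp. They were read by every probe set annotated to exactly one of these genes, 16 of the 22690 probe sets on the array, and stood for 10 of the 12393 genes with a probe set of their own. The genes were chosen by the measured values of Ppbp and Pf4, which read high on both arrays of heterozygous animals. Differences between the heterozygous arrays and the others are therefore descriptions, given without a test.

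The study hybridised total RNA of murine mitral valve to 4 arrays that differ in fibrillin-1 genotype. The wild-type group (WT, Fbn1 +/+) held 1 array, the heterozygous group (Het, labelled Fbn1 C1039/+) 2 arrays, and the homozygous group (Hom, labelled Fbn1 C1039G/C1039G) 1 array. C1039G exchanges a cysteine of fibrillin-1, the microfibril protein mutated in Marfan syndrome, and the Het labels do not spell out the substituted residue. Age, sex, strain, the number of animals behind an array and any perfusion of the hearts were not given in the sources used here, and Fbn1 itself was not analysed here.

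Platelets are cell fragments shed by megakaryocytes. They carry no nucleus but keep megakaryocyte mRNA, so their transcripts can be read in any tissue that holds blood, clot or adherent platelets. Their alpha granules store chemokines, adhesion proteins and clotting factors, which are released when surface receptors meet von Willebrand factor, collagen, podoplanin or thrombin. In whole tissue, fewer platelets and less RNA in each platelet cannot be told apart.

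Values are array intensities, scaled so that all arrays share 1 median. Values below 19 were set to 19, so a fold against a value at the floor is a lower bound. With centring, the median difference from WT over the 7319 genes compared was 0.19 on the log2 scale for Het replicate 2, -0.002 for Het replicate 1 and -0.02 for Hom. That offset of Het replicate 2 belongs to the scaling, being -0.05 with the deposited scaling and -0.004 after quantile normalization. The Actb 3' to 5' signal ratio, which rises as RNA degrades, ran from 2.16 to 2.25 on WT, Hom and Het replicate 1 and reached 3.04 on Het replicate 2. That of Gapdh set it less apart, at 4.18 in WT, 3.84 in Hom, and 3.19 and 4.65 on the Het arrays. Het replicate 2 also stood apart in tissue markers: the summed intensity of 14 cardiomyocyte markers was 0.56 times that of WT and that of 11 valve interstitial markers 0.65 times, against 1.26 and 0.84 times in Het replicate 1. No interstitial marker of the labelled tissue was at the floor on all arrays, and periostin (Postn) read 10859 in WT, 8656 in Hom, and 5863 and 6639 on Het replicates 1 and 2. Where the Het arrays differ, both values are given.

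Ppbp encodes the precursor of platelet basic protein, an alpha granule chemokine that attracts neutrophils. It read 71.4 in WT, 82.6 in Hom, and 534.7 and 1025 on the Het arrays, which are always given as replicate 1, then replicate 2. Both Het arrays were high and the WT and Hom arrays low, with no overlap. The Het arrays were 7.49-fold and 14.3-fold above WT, and the lower of them was 6.48-fold above Hom. No other gene of the 7319 had a mean Het minus WT difference as large as the 3.37 log2 units of Ppbp. Since Ppbp was chosen for its high Het values, this rank and the lack of overlap only describe that choice.

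Pf4, platelet factor 4, is a second granule chemokine, which binds heparin. It read 935.1 in WT, 679.6 in Hom, and 1341 and 2286 on the Het arrays. The order of the arrays differed from that of Ppbp, as Hom was below WT. The separation was smaller too, with Het replicate 1 only 1.43-fold and Het replicate 2 2.44-fold above WT. The step between the Het arrays, 1.70-fold, was larger than the step from WT to Het replicate 1. With the all-gene median taken off, Het replicate 1 lay 0.52 log2 units above WT, inside the middle 95% of all genes (-0.72 to 0.72).

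Clec1b encodes a C-type lectin receptor through which podoplanin activates platelets. It read 23.4 in WT, 45.8 in Hom, and 135.5 and 362.5 on the Het arrays. The Het arrays were 5.80-fold and 15.5-fold above WT and 2.96-fold and 7.91-fold above Hom, again with no overlap. WT was close to the floor, so the size of these folds is uncertain. Ppbp and Clec1b were 2 of the 3 genes that were at least 2-fold above both WT and Hom in both Het arrays, 0.041% of all genes compared. The other was Btbd2, at 55.2 in WT, 26.1 in Hom, and 156.8 and 124.6 on the Het arrays. Ppbp was chosen by its Het values, and Clec1b passed the filter on mean intensity only through its own. Their place among these 3 genes is therefore a description.

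Ppbp, Pf4, Clec1b and Gp9 share a cell of origin in which GATA and ETS factors are known to act. Their promoters are therefore shown, that of Gp9 included although its pattern differed. Each runs from 250 bases before to 50 after the annotated start, from RefSeq on GRCm38.p6, plus strand. Capitals mark GATAA, a core of GATA sites, and GGAAG, a core of ETS sites, searched on both strands, so that the reverse complements TTATC and CTTCC are also in capitals.
Ppbp, chr5:90768268-90768567: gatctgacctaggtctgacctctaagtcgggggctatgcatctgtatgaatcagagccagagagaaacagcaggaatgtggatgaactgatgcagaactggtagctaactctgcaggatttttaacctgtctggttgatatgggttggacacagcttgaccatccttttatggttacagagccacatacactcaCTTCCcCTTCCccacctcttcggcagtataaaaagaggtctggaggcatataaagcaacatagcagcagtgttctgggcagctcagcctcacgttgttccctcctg
Pf4, chr5:90772185-90772484: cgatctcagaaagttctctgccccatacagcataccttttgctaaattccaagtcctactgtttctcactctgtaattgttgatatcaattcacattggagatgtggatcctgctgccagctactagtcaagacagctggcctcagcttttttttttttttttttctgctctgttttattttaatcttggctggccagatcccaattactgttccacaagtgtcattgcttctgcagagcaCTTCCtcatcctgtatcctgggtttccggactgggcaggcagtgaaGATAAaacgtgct
Clec1b, chr6:129397047-129397346: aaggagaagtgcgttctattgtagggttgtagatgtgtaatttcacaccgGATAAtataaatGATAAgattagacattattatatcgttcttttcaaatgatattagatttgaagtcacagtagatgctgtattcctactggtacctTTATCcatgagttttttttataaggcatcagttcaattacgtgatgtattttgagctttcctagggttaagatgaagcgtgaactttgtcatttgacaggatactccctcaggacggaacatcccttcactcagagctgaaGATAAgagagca
Gp9, chr6:87777820-87778119: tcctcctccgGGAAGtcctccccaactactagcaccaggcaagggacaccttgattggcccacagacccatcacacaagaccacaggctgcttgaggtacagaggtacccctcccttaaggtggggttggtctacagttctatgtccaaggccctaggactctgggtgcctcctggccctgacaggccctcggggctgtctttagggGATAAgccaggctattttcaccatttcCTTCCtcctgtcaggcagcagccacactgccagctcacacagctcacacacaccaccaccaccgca

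All 10 genes matched the promoter table, with 11 promoters, since F13a1 has 2. GATAA stood in the promoters of 5 genes (Pf4, Clec1b, Gp9, Plek and F13a1), and in 25.4% of 32851 promoters of the same length. GGAAG stood in those of 8 genes, and in 71.4% of all promoters. Clec1b held 4 copies of GATAA and none of GGAAG, and 5.27% of all promoters held 2 or more copies of GATAA. Ppbp held no GATAA and 2 copies of GGAAG on the minus strand, beginning 56 and 50 bases before the start. A core of RUNX sites, TGTGGT, was searched on both strands too and stood in the promoters of 2 genes, Gp9 and Fermt3, and in 16.8% of all promoters. The 3 motifs were chosen after the array values were known. A match is a description of letters and not a bound site.

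**Figure D1:**
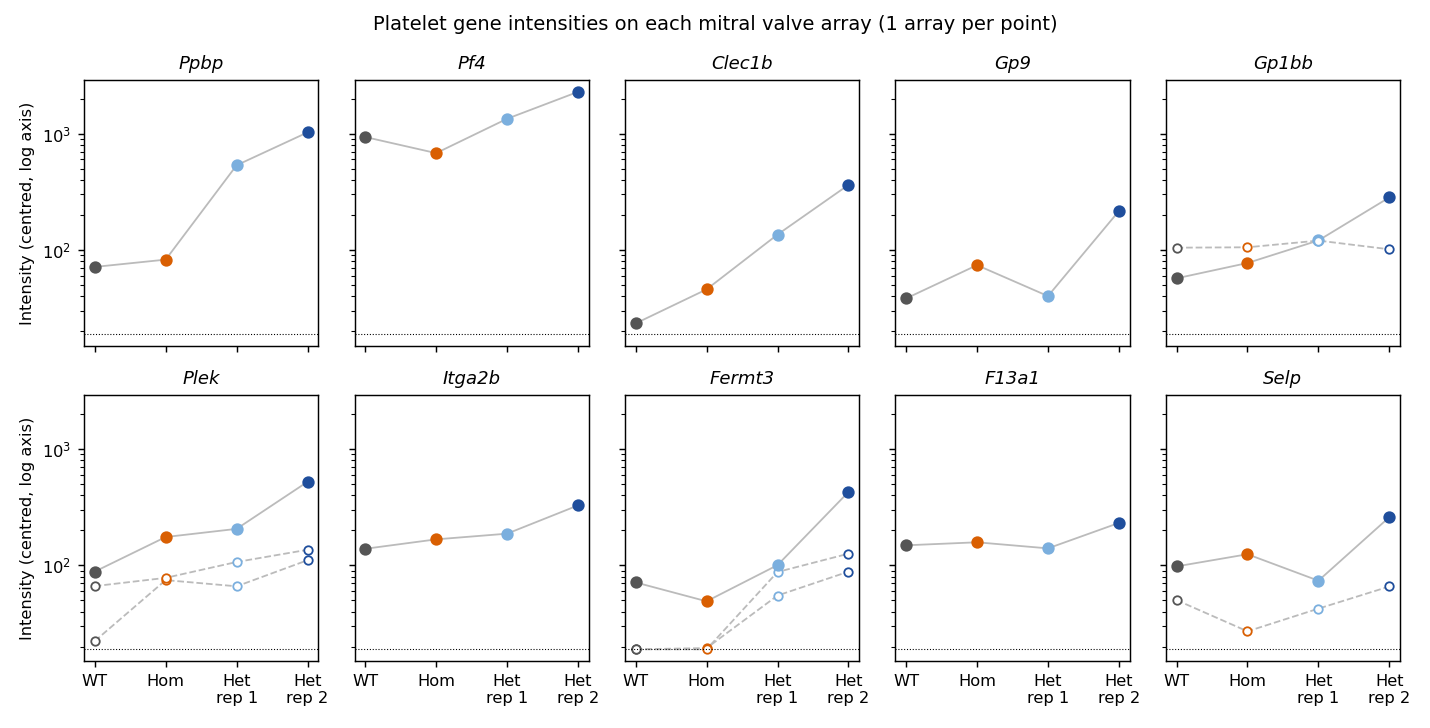
Intensity (log axis) of each gene on the 4 arrays, with filled points for the probe set that represents the gene, open points for its other probe sets and a dotted line at the floor of 19. In Ppbp and Clec1b both Het points stand clear of WT and Hom, whereas in Gp9, Selp and F13a1 the point of Het replicate 1 lies near or below WT and Hom.

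Gp1bb and Gp9 encode small subunits of the receptor for von Willebrand factor, which tethers platelets to an injured vessel wall. Gp1bb read 57.0 in WT, 77.2 in Hom, and 120.6 and 282.9 on the Het arrays. Both Het arrays were above the others, 2.12-fold and 4.96-fold above WT. A second probe set of Gp1bb did not show this, at 104.6 in WT, 105.4 in Hom, and 120.3 and 101.3 on the Het arrays. One more, which Gp1bb shares with its neighbour Septin5 and which was left out for that reason, was highest in WT, at 65.1 against 30.1 to 48.5 on the other arrays. The call for Gp1bb thus rests on 1 probe set.

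Gp9 read 38.3 in WT, 74.0 in Hom, and 40.1 and 216.1 on the Het arrays. Het replicate 1 was at the level of WT, 1.05-fold above it, and below Hom, so the groups overlapped. Het replicate 2 was 5.64-fold above WT and 5.39-fold above Het replicate 1. That was the widest gap between the Het arrays among the 10 genes. Gp5, which encodes another subunit of the same receptor, read 68.5 in WT, 63.4 in Hom, and 85.9 and 113.5 on the Het arrays.

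Itga2b encodes the alpha subunit of the platelet fibrinogen receptor. It read 138.6 in WT, 167.0 in Hom, and 187.0 and 327.1 on the Het arrays. The Het arrays were the highest, but Het replicate 1 was only 1.12-fold above Hom, less than the 1.75-fold between the Het arrays. Itgb3, its beta partner, was at the floor on all 4 arrays by its single probe set.

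Plek and Fermt3 act inside the cell, and both are also made by leukocytes. Plek encodes pleckstrin, a major substrate of protein kinase C in platelets. Its brightest probe set read 88.2 in WT, 175.0 in Hom, and 205.6 and 522.3 on the Het arrays. All 3 mutant arrays were above WT, by 1.98-fold, 2.33-fold and 5.92-fold. The probe sets of Plek placed Hom differently, at 1.18-fold above WT in one and 3.34-fold in another, where Hom (74.6) exceeded Het replicate 1 (66.0). Het replicate 1 and Hom therefore do not separate for Plek. In the probe set with Hom 1.18-fold above WT, the Het arrays were 1.61-fold and 2.05-fold above WT. Het replicate 1 thus missed 2-fold in that probe set.

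Fermt3 encodes kindlin-3, which switches on integrins in blood cells. Its brightest probe set read 71.2 in WT, 49.0 in Hom, and 100.3 and 426.7 on the Het arrays. The Het arrays were highest, 1.41-fold and 5.99-fold above WT. Its other probe sets had WT at the floor, and put Het replicate 1 at least 2.90-fold and at least 4.62-fold above it and Het replicate 2 at least 4.65-fold and at least 6.64-fold above it. All 3 probe sets of Fermt3 had both Het arrays above WT and Hom. They are of types that may bind several transcripts.

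F13a1 encodes the catalytic subunit of clotting factor XIII, which cross-links fibrin and is made by megakaryocytes and by macrophages. It read 148.5 in WT, 157.6 in Hom, and 139.8 and 231.2 on the Het arrays. Only Het replicate 2 stood above the rest, and Het replicate 1 was the lowest array. Relative to the all-gene median, F13a1 was the only one of the 10 genes that lay inside the middle 95% of genes for Het replicate 2 minus WT.

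Selp encodes P-selectin, held in platelet alpha granules and in the storage bodies of endothelial cells, which binds leukocytes once exposed. It read 97.8 in WT, 124.4 in Hom, and 73.7 and 259.4 on the Het arrays. The Het arrays were the lowest and the highest of the 4, 3.52-fold apart. A dimmer probe set read 50.2 in WT, 27.1 in Hom, and 42.4 and 65.7 on the Het arrays, and so placed Hom below WT where the brighter one placed it above. The summed intensity of 13 endothelial markers was 10098 in WT, 9064 in Hom, and 9957 and 7995 on the Het arrays, so it was lowest on the array where Selp was highest.

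Across the 10 genes, 4 (Ppbp, Clec1b, Gp1bb and Plek) were at least 2-fold above WT in both Het arrays, where 0.287% of all genes compared were. Het replicate 1 was at least 2-fold above WT at those same 4 genes (background 0.669%) and Het replicate 2 at 9 (background 5.27%), all except F13a1. In 7 of the 10 both Het arrays were above WT and Hom, against 22.5% of all genes, the exceptions being Gp9, F13a1 and Selp. These counts describe the contrast from which the genes were chosen, and both Het differences subtract the same WT array. With the deposited scaling the same counts of 4, 9 and 7 members stood against backgrounds of 0.246%, 2.32% and 14.4%. After quantile normalization 3 genes were 2-fold above WT in both Het arrays (background 0.287%) and 6 were above WT and Hom (background 15.6%), because Gp1bb was then represented by its other probe set. Het replicate 2 was then at least 2-fold above WT at 7 genes (background 2.28%), with Itga2b lost as well as Gp1bb. All 10 genes passed the filter on mean intensity, but Clec1b, Gp9 and Fermt3 passed only through their Het values, as their mean over WT and Hom was below the limit of 60.4.

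**Figure D2:**
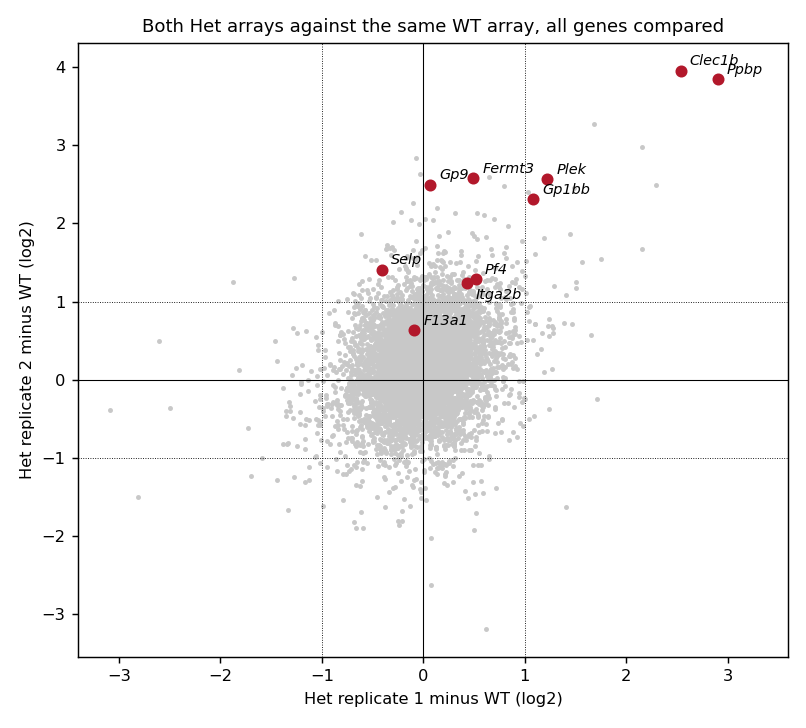
Log2 difference from WT in Het replicate 1 (horizontal) and Het replicate 2 (vertical) for the 7319 genes compared, with the 10 platelet genes in red and dotted lines at 2-fold. Ppbp and Clec1b stand alone at the upper right; Gp9 and Selp are high on the vertical axis only, and F13a1 lies within the cloud.

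Het replicate 2 was above Het replicate 1 at all 10 genes, as at 64.4% of genes compared, and at least 2-fold above it at 6, against 6.98%. With the deposited scaling these counts were 10 and 5, and the backgrounds 45.2% and 3.20%; after quantile normalization Gp1bb was not above. With the all-gene median taken off, the median of the 10 genes lay 0.51 log2 units above WT for Het replicate 1, 2.21 for Het replicate 2 and 0.33 for Hom. The order from low to high of WT, Hom, Het replicate 1 and Het replicate 2 held for Ppbp, Clec1b, Gp1bb, Plek and Itga2b, and for 8.24% of all genes compared.

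The comparison of Hom with WT asked whether 2 mutant copies went with other platelet transcript levels. It was not the contrast by which the genes were chosen. It shares the WT array with the Het differences, however, so it is not independent of that choice. Hom was above WT at 8 of the 10 genes, where 46.7% of genes compared were, and below it at Pf4 and Fermt3. The highest differences were those of Plek (0.99 log2 units, SE 0.63), Clec1b (0.97, SE 0.64) and Gp9 (0.95, SE 0.81), which were the 3 of the 10 above the middle 95% of all genes. The lowest were Fermt3 (-0.54, SE 0.75) and Pf4 (-0.46, SE 0.57), and Ppbp differed by 0.21 (SE 0.58). Clec1b, Gp9 and Fermt3 were compared only because their Het values carried them over the filter on mean intensity. None of the 10 genes passed limma's test, with an adjusted p of 0.9999 for each, and 0 passed an unadjusted 0.05. Over all 7319 genes, 0% passed the adjusted threshold and 0.437% an unadjusted 0.05. No member reached 2-fold in Hom, where 0.437% of genes were at least 2-fold higher, but Plek and Clec1b lay at 1.98-fold and 1.96-fold and crossed that limit with the deposited scaling. The test takes its spread from the Het pair alone, with 1 residual degree of freedom for each gene. The eBayes step draws that spread towards a value shared by all genes, so each SE reflects other genes too. At each of these 10 genes the Het arrays were further apart than WT and Hom. A p that misses the threshold here does not show that Hom and WT are alike.

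**Figure D3:**
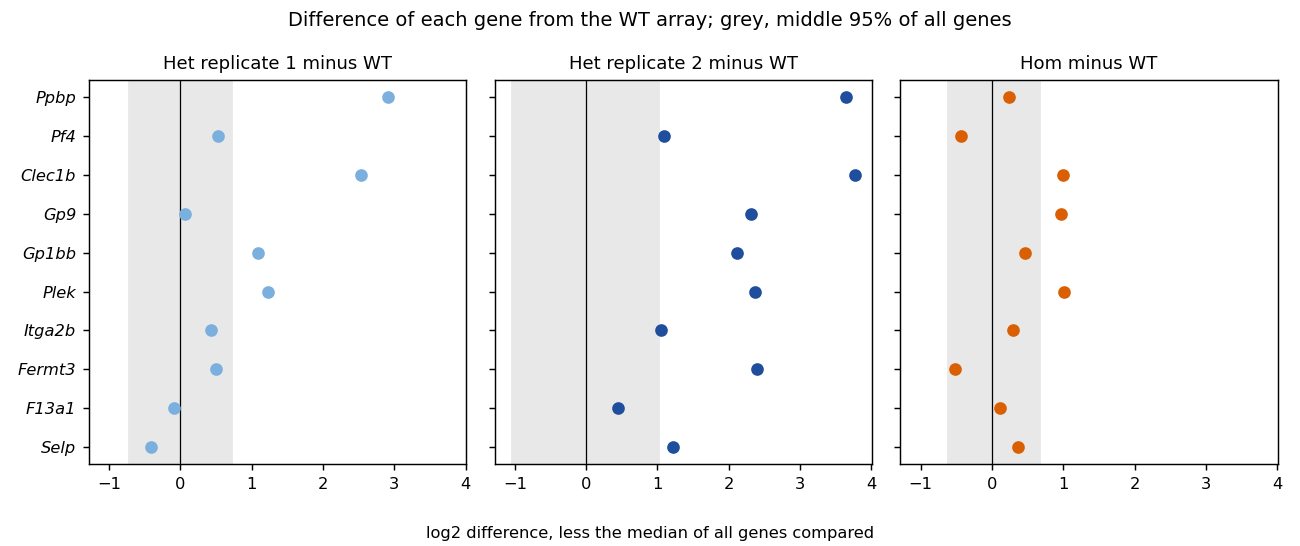
Log2 difference of each gene from WT on the other 3 arrays, less the median of all genes compared, with the middle 95% of all genes in grey. In Het replicate 1 the points of Ppbp, Clec1b, Gp1bb and Plek lie outside the grey band, in Het replicate 2 all except that of F13a1, and in Hom those of Clec1b, Gp9 and Plek.

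The genes with a profile nearest to Ppbp were ranked by Euclidean distance over the 4 arrays between log2 values less each gene's mean, which is a likeness over 4 points only. Clec1b was nearest, at a distance of 0.82 log2 units, ahead of the Fc receptor gamma chain Fcer1g (1.68), Fermt3 (1.75), the calcium-binding protein S100a4 (1.76) and Gp1bb (1.81). Fcer1g, which signals for the platelet collagen receptor and for Fc receptors of leukocytes, read 33.5 in WT, 81.2 in Hom, and 107.4 and 323.6 on the Het arrays. S100a4, which is also made by fibroblasts and leukocytes, read 348.1 in WT, 322.9 in Hom, and 544.2 and 2093 on the Het arrays. Plek ranked 9, Pf4 19, Itga2b 129, Gp9 341, Selp 1680 and F13a1 1929 of 7318 genes. Clec1b, Fermt3, Gp1bb, Plek and Pf4 thus lay within the first 19 ranks, and Gp9, Selp and F13a1 much further off. Ppbp and Pf4 were chosen for their Het values, and Clec1b and Fermt3 passed the filter through theirs. These ranks are therefore a description.

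Ppbp and Pf4 lie side by side on chromosome 5 among other CXC chemokine genes. On one side Cxcl5 was at the floor on 3 arrays and 20.3 in Hom. On the other, Cxcl15 was at the floor on 3 arrays and 25.6 in Hom, Cxcl1 ran from the floor in WT to 40.1 in Hom, and Cxcl2 from 19.3 in WT to 36.4 in Het replicate 2. None of these 4 neighbours passed the filter on mean intensity, and none came near the Het values of Ppbp or Pf4. Of 4 CXC chemokine or receptor genes elsewhere that passed it, 0 were 2-fold above WT in either Het array. The backgrounds were low as well, 0.669% (replicate 1) and 5.27% (replicate 2), so a count of 0 does not set these 4 genes apart. Among them Cxcl12, a chemokine of stromal cells, read 273.6 in WT, 307.8 in Hom, and 238.4 and 228.4 on the Het arrays, and Cxcl16 201.4, 203.9, 209.7 and 374.7 in the same order.

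Other genes known from platelets were taken from lists by role. Of 23 further receptor genes 11 were compared. Of these 7 were above WT in both Het arrays (background 35.5%) and 1, Fcer1g, was 2-fold above in both (background 0.287%). Their median lay 0.27 and 0.43 log2 units above the all-gene median in Het replicates 1 and 2. Treml1, a receptor stored in platelet alpha granules, read 113.4 in WT, 94.2 in Hom, and 155.8 and 182.9 on the Het arrays. Tbxa2r, the thromboxane receptor, followed another order and was highest in Hom, at 120.5, against 38.3 in WT, 79.2 in Het replicate 1 and 73.9 in Het replicate 2.

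Of 13 further granule cargo and secretion genes compared, only Clu, the clusterin gene, was above WT in both Het arrays (background 35.5%). It read 2237 in WT, 1828 in Hom, and 2240 and 3799 on the Het arrays, and its step in Het replicate 1 was negligible. Srgn, serglycin, the granule proteoglycan that retains Pf4, split the Het arrays, at 295.5 in WT, 222.5 in Hom, and 194.3 and 710.8 on the Het arrays. Thbs1, the granule protein thrombospondin 1, split them the other way, at 170.2 in WT, 239.5 in Hom, and 327.2 and 168.5 on the Het arrays. Tgfb1, a growth factor that platelets store, was lower in both Het arrays, at 73.0 and 76.5, against 105.9 in WT and 107.8 in Hom.

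Of 12 integrin activation and signalling genes compared, 6 were above WT in both Het arrays (background 35.5%), 4 with the all-gene median taken off (background 28.1%), and 0 by 2-fold (background 0.287%); talin (Tln1) read 317.6 in WT, 307.7 in Hom, and 350.4 and 423.2 on the Het arrays. Of 10 cytoskeleton and eicosanoid genes, 3 were above WT in both, near the background of 35.5%. Among them was the platelet lipoxygenase Alox12, at 51.6 in WT, 45.8 in Hom, and 86.9 and 115.0 on the Het arrays. Its second probe set stayed between 15.5 and 20.3, at or near the floor. Of 8 megakaryocyte transcription factors compared, 0 were above WT in both Het arrays (background 35.5%). Fli1, an ETS factor also made by endothelium, read 125 in WT, 63.6 in Hom, and 61.2 and 97.6 on the Het arrays. Among the listed factors that missed the filter, Nfe2 read 24.9 in WT, 27.1 in Hom, and 45.0 and 82.0 on the Het arrays. Of the rest, Gata1 and Mrtfa were below WT in both Het arrays, Etv6 split them and Gfi1b was at the floor on all arrays. Among 10 genes of coagulation and fibrinolysis in the vessel wall, Plat, tissue plasminogen activator, read 710.8 in WT, 843.9 in Hom, and 942.6 and 1601 on the Het arrays, and Thbd, thrombomodulin, 902.6, 695.0, 537.0 and 567.7 in the same order. In limma's test of Hom against WT, 0 genes of these lists passed.

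Markers of other blood cells set the 2 Het arrays apart from each other. The summed intensity of 11 pan-leukocyte markers was 1337 in WT, 1358 in Hom, and 1238 and 3316 on the Het arrays. That of 20 macrophage markers was 5306, 5074, 4423 and 9202 in the same order, and that of 12 erythroid markers 2124, 2362, 2056 and 4178. Relative to WT, these 3 sums were 2.48, 1.73 and 1.97 times as high in Het replicate 2, and 0.93, 0.83 and 0.97 times in Het replicate 1. The summed intensity of the 10 platelet genes was 3.56 times that of WT in Het replicate 2 and 1.72 times in Het replicate 1, and 3.96 and 1.51 times without Ppbp and Pf4. With the deposited scaling the sums on Het replicate 2 were 2.10 times WT for pan-leukocyte, 1.47 for macrophage, 1.67 for erythroid and 3.02 for platelet genes. Of these 4 sums, all were above WT on Het replicate 2, and only that of the 10 chosen platelet genes on Het replicate 1. With centring, sums of the further platelet lists were below WT on Het replicate 1. They were 0.97 times WT for receptors, 0.97 for granule cargo and secretion, 0.96 for integrin activation and signalling, and 0.91 for cytoskeleton and eicosanoid genes. On Het replicate 2 they were 1.32, 1.36, 1.34 and 1.35 times WT in the same order. With the deposited scaling these fell to 1.12, 1.15, 1.13 and 1.14 times WT. After quantile normalization the sums on Het replicate 1 were 1.01, 1.02, 0.98 and 0.95 times WT, so their side of WT depends on the scaling. The largest part of the receptor sum was Cd151, at 2055 in WT, and 1642 and 2693 on the Het arrays. All pan-leukocyte and macrophage markers were above the floor on some array, while Epb42 and Rhag of the erythroid list were at the floor on all. Much of the erythroid sum was Alas2, at 1032 in WT and 2578 on Het replicate 2. Of 6 erythroid markers compared, 3 (Alas2, Hbb-b2 and Slc4a1) were at least 2-fold above WT on Het replicate 2 (background 5.27%). The others, Ank1, Sptb and Tfrc, were below WT there. The part of leukocytes, macrophages among them, in the values of the 10 genes was not tested, for Pf4 as for Plek, Fermt3, F13a1 and Selp.

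The summed intensity of 11 neutrophil markers was 390.4 in WT, 466.3 in Hom, and 463.1 and 474.3 on the Het arrays, with Camp and Cxcr2 at the floor on all arrays. That of 9 lymphocyte markers was 250.2, 241.2, 252.2 and 225.8 in the same order, with Cd3e, Cd3g and Cd2 at the floor on all. Neither sum set the Het arrays apart from both others. That of 7 mast cell markers was 590.4, 532.2, 434.8 and 673.6, with the Het arrays lowest and highest, but with the deposited scaling Het replicate 2 was at 0.97 times WT.

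**Figure D4:**
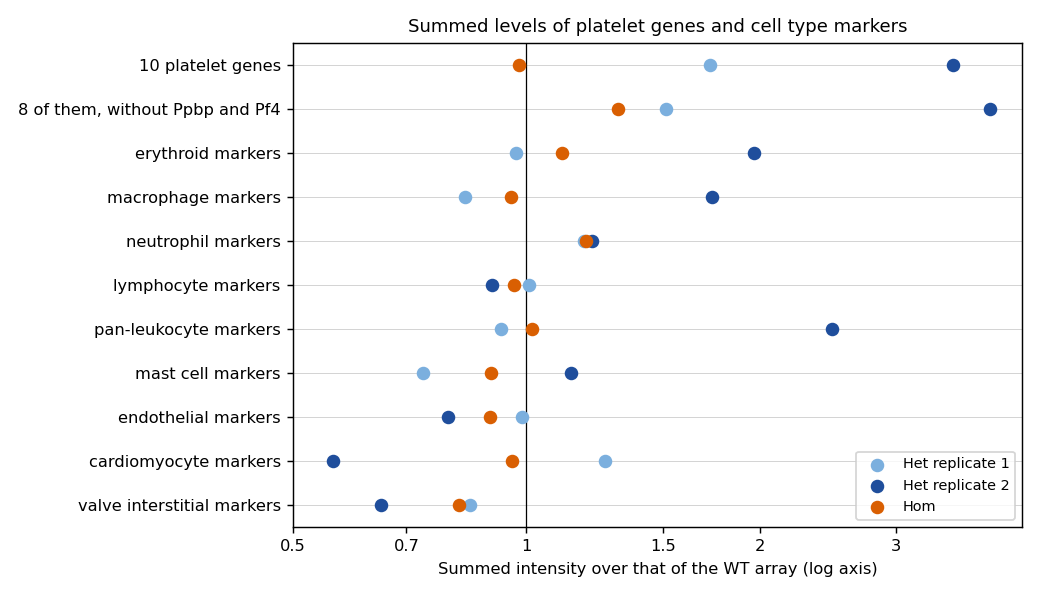
Summed intensity of the 10 chosen platelet genes, with and without Ppbp and Pf4, and of 9 marker lists on 3 arrays, divided by that of WT (log axis). The further platelet lists are not drawn. For Het replicate 2 the platelet, pan-leukocyte, erythroid and macrophage sums all lie above 1.5 (macrophage at 1.47 with the deposited scaling). For Het replicate 1 only the sums of the chosen platelet genes do.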

How the data were processed

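Total RNA of mouse mitral valve was measured on 4 single-colour arrays, with groups taken from the titles (WT 1, Het 2, Hom 1). The deposited values are linear intensities, for 22690 probe sets, and how they were made is not given in the sources used here. Every array has a trimmed mean of 150.1 (2% left out at each end).

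Each array was centred on the common log2 median, floored at the 25th percentile (19) and log2 transformed. Gene names came from the platform annotation and were brought up to date through gene identifiers (20364 of 20393 probe sets with 1 gene matched); 691 with several genes, 1606 with none and 64 controls were left out. The probe set with the highest geometric mean represents a gene, which was compared when that mean reached the median of all probe sets (60.4), which left 7319 genes. Hom and WT were compared with limma 3.58.1 in R 4.3.3 (3 groups, eBayes, Benjamini-Hochberg over all genes, threshold 0.05), tested on simulated data first. P-values measure only the spread between these arrays, whose small number limits precision. The Het arrays shared 82 identical values and were not duplicates.

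The members and lists were chosen with earlier results of these data known. The text names all members; in each list it could name the 2 highest and 2 lowest differences of Hom and of both Het arrays on 1 side of WT; and it names the 5 genes nearest to Ppbp. Partners, chromosome neighbours and genes counted singly (Gp5, Itgb3, Btbd2, Cxcl1, Cxcl2, Cxcl5 and Cxcl15) were chosen after their values were seen. The same holds for the transcription factors that missed the filter (Gata1, Nfe2, Gfi1b, Mrtfa and Etv6). Alternatives were the deposited scaling, quantile normalization, no filter, a filter at the 75th percentile, a floor of 1, averaging the probe sets of a gene, eBayes with trend and robust, leaving out each Het array, and, added after the data were seen, a filter on the mean of WT and Hom and one on the arithmetic mean. The arithmetic mean was used first (7309 genes) and replaced by the geometric mean to follow the earlier processing of these data, with results of both in view. Python 3.11.15 with matplotlib 3.10.9 drew the figures.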

Additional observations from a re-analysis of the deposited data

How the results depend on the processing

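With 1 WT and 1 Hom array, no difference of these genes has a replicate check on both sides, and dim values such as Clec1b in WT lie near the floor. No paired analysis was possible because the WT and Hom labels carry no replicate number. The number of members, and of all genes, passing limma's test of Hom against WT was 0 as reported and under the 9 alternatives that allowed a test, and leaving out a Het array left no residual degree of freedom. The filter on the arithmetic mean left these counts and every member difference as reported. The median Hom minus WT difference of the members, 0.31 log2 units, ranged from 0.15 to 0.35. The count of 4 members at least 2-fold above WT in both Het arrays was 2 with the filter at the 75th percentile (4 members left, Ppbp and Plek counted). With the filter on the mean of WT and Hom it was 3 (7 members left, Ppbp, Gp1bb and Plek counted). Averaging the probe sets of a gene kept the count at 4, with Fermt3 in place of Gp1bb. Leaving out 1 Het array gave 2 without Het replicate 2, where 8 members passed the filter, and 9 without Het replicate 1. The mean Het minus WT difference of Gp1bb, 1.70, was 0.02 after quantile normalization and 0.20 without Het replicate 2, since its other probe set then represented it. Hom minus WT of Selp turned from 0.35 to -0.27 with the mean of all probe sets. The mean Het minus WT difference of Selp, 0.50, turned to -0.41 without Het replicate 2 and was 1.41 without Het replicate 1, and that of F13a1, 0.28, turned to -0.087 and was 0.64. No other member difference changed sign under the alternatives run.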
